A study of Mus musculus with 13 samples.

Results

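The 10 genes described here are genes of T lymphocytes, measured by RNA sequencing in whole pancreas. They are Cd3d, Cd3e, Cd3g, Cd4, Cd8a, Cd8b1, Lck, Cd2, Cd5 and Il7r, a list of names chosen for the cell type and not by their values in a contrast, though with earlier results of these data known. All 10 were found among the 23366 genes of the expression table. The samples came from 13 female mice of the reprogrammable strain i4F-B, with 1 library per mouse. Every mouse carried the same transgene, which encodes Oct4, Sox2, Klf4 and Myc (OSKM), lies in Pparg and is induced by doxycycline. The authors call it ubiquitous but report that cell types express it unevenly. In the pancreas they saw SOX2 broadly in acinar cells after induction, but not in most endocrine cells. The young group (n = 4, 13 weeks old) and the old group (n = 5, 55 weeks old) received no doxycycline. The old-OSKM group (n = 4) received doxycycline for 7 days, was left to recover for 2 weeks, and was 58 weeks old by its labels. Because the untreated old mice had no doxycycline, an effect of the drug and an effect of the factors cannot be told apart.

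T cells recognise antigen through a receptor that cannot signal by itself and relies on the CD3 chains for it. The kinase Lck, brought to the receptor by the coreceptors CD4 or CD8, phosphorylates these chains. The pancreas holds few T cells, scattered in the exocrine tissue and around islets, and lymph nodes lie against it and partly within it. In RNA from a whole organ, fewer T cells and less T cell RNA per cell cannot be told apart.

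All values are log2 of RPKM, as deposited. RPKM scales the reads of a gene by transcript length and by library size and is a level per length, so that levels of different genes can be set side by side. The tissue was pancreas by its own markers, since the 10 acinar genes examined, among them the digestive protease genes Cpa1 and Ctrb1, summed to between 12230 and 12755 RPKM in every mouse. Quantile normalization gave every mouse nearly the same set of values, so the steadiness of this sum says little about acinar content. The 10 T cell genes summed to between 1.17 and 9.30 RPKM. The study's methods give 1 nominal sequencing depth for all samples, and the table gives neither counts per gene nor the total of each library, so the reads behind a value cannot be worked out. Low values bunch at a level that differs from gene to gene. A value within 0.1 of the lowest of that gene is therefore called near the bottom below, and differences from such values are not measured folds. In 5398 genes of low mean level (23.1% of all genes), at least 10 of the 13 mice lay within 0.1 of the gene's median. Relative to that median, these genes lay at -0.08 in old-OSKM replicate 1 and at -0.15 in old-OSKM replicate 4. In the other mice they lay within 0.04 of it.

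Several of the 10 genes are neighbours in the genome (mouse assembly GRCm38.p6, the assembly behind mm10). On chromosome 9, Cd3g (44969572 to 44980431, minus strand) and Cd3d (44981769 to 44987052, plus strand) are transcribed away from each other with 1337 bases between them, and Cd3e (44998735 to 45009663, minus strand) lies 11682 bases beyond Cd3d. On chromosome 6, Cd8b1 (71322788 to 71337492) and Cd8a (71373427 to 71379171) lie 35934 bases apart on the same strand. Cd4 is also on chromosome 6 (124864693 to 124888247), Lck on chromosome 4 (129548344 to 129573641), Cd2 on chromosome 3 (101275908 to 101287939), Cd5 on chromosome 19 (10718107 to 10739026) and Il7r on chromosome 15 (9506159 to 9529941). Exons of Cd3e overlap exons of the antisense gene Gm48719, and an exon of Lck contains the microRNA gene Mir8119. Whether reads were assigned by strand is not given in the sources used here, so reads of Cd3e and of its antisense partner cannot be told apart.

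Promoter sequences from RefSeq (GRCm38.p6) were matched for 7 of the 10 genes, in 8 windows of 250 bases before a transcript start, with Lck having 1 window for each of its starts. The stretches in front of the 3 clustered CD3 genes and of Cd8a are shown because Cd3g and Cd8a had the largest differences between old-OSKM and young mice, and Cd3d and Cd3e adjoin Cd3g. They are Cd3g at chr9:44980432-44980681 (minus strand), Cd3d at chr9:44981536-44981768 (plus strand), Cd3e at chr9:45009664-45009861 (minus strand) and Cd8a at chr6:71373177-71373426 (plus strand), each printed 5′ to 3′ along its gene's strand, without bases inside the gene itself. Capitals mark the motif matches.
Cd3g: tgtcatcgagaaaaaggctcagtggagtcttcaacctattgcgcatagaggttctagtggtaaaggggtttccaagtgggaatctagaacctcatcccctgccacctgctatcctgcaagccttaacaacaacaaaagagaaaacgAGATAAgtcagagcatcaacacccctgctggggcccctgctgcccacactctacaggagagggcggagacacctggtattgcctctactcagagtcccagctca
Cd3d: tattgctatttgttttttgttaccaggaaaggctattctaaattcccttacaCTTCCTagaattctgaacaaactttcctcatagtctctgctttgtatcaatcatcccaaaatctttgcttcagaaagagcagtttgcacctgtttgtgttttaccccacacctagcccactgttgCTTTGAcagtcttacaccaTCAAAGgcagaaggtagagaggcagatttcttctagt
Cd3e: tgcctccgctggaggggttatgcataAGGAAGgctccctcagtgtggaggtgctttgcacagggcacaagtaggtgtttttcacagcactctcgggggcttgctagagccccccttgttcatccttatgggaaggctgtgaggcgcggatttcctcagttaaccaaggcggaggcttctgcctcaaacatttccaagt
Cd8a: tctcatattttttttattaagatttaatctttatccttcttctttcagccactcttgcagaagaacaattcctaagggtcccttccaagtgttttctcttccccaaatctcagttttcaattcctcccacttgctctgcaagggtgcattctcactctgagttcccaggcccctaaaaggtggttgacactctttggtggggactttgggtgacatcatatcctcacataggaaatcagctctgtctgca

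The motifs searched, on both strands, were those of factor families known from lymphocytes and the TATA box. The letters searched for RUNX factors were TGTGGT, those for ETS factors were AGGAAG, for TCF/LEF factors CTTTGA was used, for GATA factors the motif was AGATAA, for the E-box it was CAGCTG, and TATAAA stood for the TATA box. No match in the printed stretches overlaps another. The capitals of Cd3g are a GATA match that begins 104 bases before its transcript start. Those of Cd3d are an ETS match at 198 and TCF/LEF matches at 73 and 54 bases before the start, and those of Cd3e an ETS match at 224. The transcript starts used for Cd3d and Cd3e lie inside the gene, so these distances run past the end of the printed stretch. A further ETS match of Cd3e, at 17, lies in the part not printed. The Cd8a stretch held none of the 6 motifs. The ETS motif occurred in 6 of the 8 windows and in 29.5% of all 32851 windows of this length. RUNX, TCF/LEF and GATA occurred in 1 of the 8 windows each, compared with 14%, 13.8% and 9.99% of all windows. The TATA and E-box motifs were in none of the 8 (12.4% and 13% of all windows).

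The T cell genes were highest in a single old-OSKM mouse, and in no contrast did any of them pass a threshold adjusted over all genes. Each had its lowest value in a young mouse, but except for Cd4, Lck and Cd2 an old mouse was near the bottom too. How many of all genes were lowest in a young mouse was not counted. In old-OSKM replicate 1 all 10 genes had their highest value of the 13 mice, compared with 8.5% of all genes. They summed to 9.30 RPKM there and to at most 3.03 in the other 12 mice. Young mice averaged a sum of 1.53 ± 0.30 RPKM (SD, n = 4) and old mice 2.21 ± 0.59 (SD, n = 5). Old-OSKM mice averaged 3.99 ± 3.56 (SD, n = 4), or 2.22 ± 0.51 (SD, n = 3) without replicate 1. Old and old-OSKM mice were thus at nearly the same sum once that mouse was set aside. Old replicate 1, with a sum of 3.03 RPKM, was the next highest mouse for 5 of the 10 genes.

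**Figure D1:**
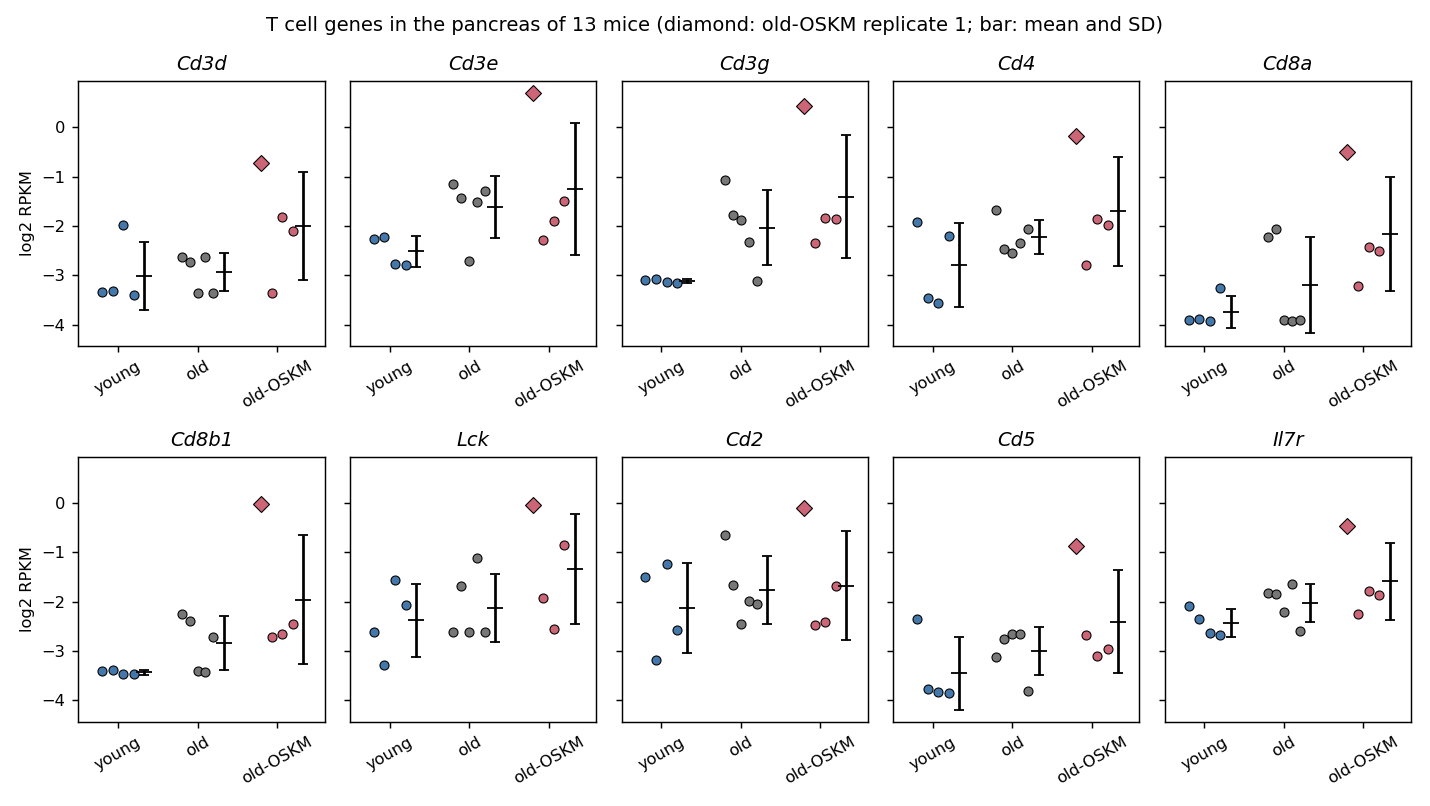
Log2 RPKM of the 10 T cell genes in each mouse (points), by group, with the mean and SD of each group as a bar beside the points. The diamond is old-OSKM replicate 1, the highest of the 13 mice in every panel; the young mice of Cd3g and Cd8b1 lie on a line at the bottom.

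Cd3g encodes the gamma chain of CD3. Its log2 RPKM was -3.09, -3.08, -3.14 and -3.15 in the young mice, -1.07, -1.78, -1.88, -2.33 and -3.11 in the old mice, and 0.42, -2.36, -1.85 and -1.87 in the old-OSKM mice. All 4 young mice and old replicate 5 were near the bottom, and every old-OSKM mouse was above every young mouse. A gene is said to be called here when limma gave it a difference beyond 1.5-fold with an unadjusted p below 0.01. By that rule Cd3g was the only one of the 10 called in a contrast, with a log2 difference of 1.70 between old-OSKM and young mice (standard error 0.55, 95% interval 0.49 to 2.91, adjusted p = 0.706 from limma). The call stood at the edge of the threshold. It ended without old-OSKM replicate 1, when the difference was 1.09 (adjusted p = 0.817), and also on leaving out 9 other mice, each in turn. Between old and young mice Cd3g differed by 1.08 (standard error 0.52, adjusted p = 0.945 from limma) and was not called. With old-OSKM replicate 1 taken out of the shared estimate of spread it was called there too (adjusted p = 0.555).

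Cd3e encodes the epsilon chain, which pairs with the gamma and the delta chain. It measured -2.26, -2.22, -2.76 and -2.80 in young, -1.15, -1.43, -2.71, -1.52 and -1.30 in old, and 0.69, -2.29, -1.90 and -1.50 in old-OSKM mice. Old replicate 3 lay among the young mice and the other 4 old mice above all of them. The log2 difference was 0.89 between old and young (standard error 0.53, adjusted p = 1 from limma) and 0.37 between old-OSKM and old mice (standard error 0.53, adjusted p = 0.731), the latter becoming -0.28 without old-OSKM replicate 1. In two-sided exact permutation tests of the old against the young mice, Cd3e and Cd3g both had p = 0.0476, where 0.0159 is the smallest that 5 against 4 mice allow, and the other 8 genes lay between 0.0952 and 0.905. How many of all genes had a p as small by this test was not counted.

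Cd3d, the delta chain gene, was -3.33, -3.31, -1.97 and -3.40 in young, -2.63, -2.72, -3.35, -2.62 and -3.37 in old, and -0.72, -3.36, -1.82 and -2.10 in old-OSKM mice. Near-bottom values were found in all 3 groups, in 6 mice altogether, and the groups overlapped. Its difference between old and young mice was 0.07 (standard error 0.47), the smallest of the 10, and its sign turned with the mouse left out. Between old-OSKM and old mice it was 0.94 (standard error 0.47, 95% interval -0.09 to 1.96, adjusted p = 0.567 from limma), with 0.51 left when old-OSKM replicate 1 was set aside. With old-OSKM replicate 2, the lowest of its group, left out, Cd3d was called against old mice (1.39) and against young mice (1.46).

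The coreceptor CD8, which marks cytotoxic T cells, is made of the chains encoded by Cd8a and Cd8b1. Cd8a measured -3.90, -3.88, -3.93 and -3.26 in young, -2.21, -2.06, -3.90, -3.92 and -3.91 in old, and -0.51, -3.22, -2.42 and -2.51 in old-OSKM mice. Cd8b1 measured -3.40, -3.37, -3.47 and -3.47 in young, -2.25, -2.39, -3.41, -3.43 and -2.71 in old, and -0.02, -2.71, -2.65 and -2.46 in old-OSKM mice. In both genes old replicates 1 and 2 stood above old replicates 3 and 4, and all 4 old-OSKM mice were above all 4 young mice, although Cd8a in old-OSKM replicate 2 exceeded young replicate 4 by a small margin. Old-OSKM exceeded young mice by a log2 difference of 1.58 for Cd8a (standard error 0.60, adjusted p = 0.706 from limma). For Cd8b1 it was 1.47 (standard error 0.53, adjusted p = 0.706). These fell to 1.03 and 0.82 without old-OSKM replicate 1 (adjusted p = 0.817 for both), and neither gene was called with or without that mouse. Leaving out old-OSKM replicate 2 put Cd8a over the threshold. Cd3g, Cd8a and Cd8b1 were the 3 of the 10 genes whose old-OSKM and young values did not overlap, which held upward for 1.09% of all genes, and each had an exact permutation p of 0.0286, the smallest that 4 against 4 mice allow.

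Cd4 encodes the coreceptor of helper T cells and, in mice, is also expressed on some dendritic cells. It was -1.93, -3.47, -3.55 and -2.20 in young, -1.69, -2.47, -2.55, -2.34 and -2.06 in old, and -0.17, -2.79, -1.86 and -1.98 in old-OSKM mice. Young mice held the widest range apart from the high old-OSKM mouse, and the groups overlapped in every contrast. The differences were 0.57 between old and young (standard error 0.50), 0.52 between old-OSKM and old (standard error 0.50) and 1.09 between old-OSKM and young mice (standard error 0.52, adjusted p = 0.706 from limma). Cd4 exceeded Cd8a on the log2 scale by 0.96 ± 0.74 (SD, n = 4) among young mice, by 0.98 ± 0.92 (SD, n = 5) among old mice and by 0.46 ± 0.10 (SD, n = 4) among old-OSKM mice, means that differ by less than the SD of the young or the old group. In young and old mice many of these Cd8a values were near the bottom.

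Lck, the kinase that starts receptor signalling, was -2.61, -3.29, -1.56 and -2.06 in young, -2.61, -1.68, -2.61, -1.11 and -2.62 in old, and -0.05, -1.92, -2.56 and -0.85 in old-OSKM mice. Its groups overlapped throughout, with old-OSKM replicate 4 the next highest mouse after replicate 1, and the differences were 0.25 (standard error 0.54) between old and young, 0.78 (standard error 0.54) between old-OSKM and old and 1.03 (standard error 0.57) between old-OSKM and young mice. Cd2, an adhesion receptor shared with natural killer cells, was -1.50, -3.18, -1.23 and -2.57 in young, -0.65, -1.67, -2.46, -2.0 and -2.05 in old, and -0.11, -2.48, -2.41 and -1.69 in old-OSKM mice. It was the gene with the smallest differences involving old-OSKM mice, 0.09 from old (standard error 0.56, 95% interval -1.14 to 1.32) and 0.45 from young mice (standard error 0.59), and both were below 0 without old-OSKM replicate 1 (-0.43 and -0.074).

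Cd5, which dampens receptor signalling and is also found on a subset of B cells, was -2.35, -3.77, -3.83 and -3.84 in young, -3.11, -2.76, -2.66, -2.66 and -3.81 in old, and -0.87, -2.68, -3.10 and -2.96 in old-OSKM mice. Of the young mice 3 were near the bottom while young replicate 1 was above every mouse but old-OSKM replicate 1. Its difference was 0.45 (standard error 0.48) between old and young and 1.05 (standard error 0.50, adjusted p = 0.706 from limma) between old-OSKM and young mice. Il7r, the receptor chain for the survival cytokine interleukin 7, had the smallest standard errors. It was -2.08, -2.35, -2.64 and -2.68 in young, -1.82, -1.84, -2.20, -1.64 and -2.60 in old, and -0.46, -2.25, -1.78 and -1.86 in old-OSKM mice. Its differences were 0.42 (standard error 0.32), 0.43 (standard error 0.32) and 0.85 (standard error 0.34, adjusted p = 0.706 from limma) in the same order of contrasts, the last of these 0.47 without old-OSKM replicate 1.

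Ranked by mean level, Cd2, Lck and Il7r came first in young mice, Cd3e, Cd2 and Il7r in old mice and Cd3e, Lck and Cd3g in old-OSKM mice. Cd8a was last in young and old mice and Cd5 in old-OSKM mice. Neighbours in these orders differed by 0.01 to 0.61. Only the steps from Cd3g to Cd8b1 in young mice (0.31) and from Cd4 to Cd8b1 in old mice (0.61) exceeded the SDs of both genes, and the former lies between values near the bottom. Near-bottom values made up 4, 8, 7 and 6 of the 10 genes in young replicates 1 to 4, 0, 0, 4, 2 and 5 in old replicates 1 to 5, and 0, 1, 0 and 0 in old-OSKM replicates 1 to 4.

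The first contrast asked how T cell genes differed with age. None of the 10 genes was called, higher or lower, between old and young mice, where 0.449% of all genes were called higher and 0.0813% had an adjusted p under 0.05. None had an unadjusted limma p under 0.05, a level that 3.0% of all genes reached with higher values in old mice. With old-OSKM replicate 1 taken out of the shared spread, 3 did (Cd3e, Cd3g and Cd8b1), where 5.84% of all genes did in either direction. The 10 differences were all above 0, as were 54.4% of all genes, and ran from 0.07 for Cd3d to 1.08 for Cd3g. Their median was 0.50, compared with 0.00 over all genes. Standard errors of 0.32 to 0.57 gave 95% intervals that all included 0.

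The next contrast asked what differed in old mice after transient OSKM. None of the 10 genes was called between old-OSKM and old mice either, where 0.582% of all genes were called higher and 0.00428% had an adjusted p under 0.05. None had an unadjusted limma p under 0.05 (3.98% of all genes, counting those higher). All 10 differences were above 0 (36.9% of all genes), from 0.09 for Cd2 to 1.04 for Cd8a. The median was 0.61, compared with -0.04 over all genes. Old-OSKM replicate 1 carried most of that median. Without it the median was 0.07, the range was -0.43 to 0.51 and 8 of 10 differences were above 0.

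Between old-OSKM and young mice 1 of the 10 genes was called, Cd3g, where 0.454% of all genes were called higher. An unadjusted limma p under 0.05 was found for 5 genes, Cd3e, Cd3g, Cd8a, Cd8b1 and Il7r (2.91% of all genes, counting those higher). No adjusted p was below 0.706, where 0.0428% of all genes had one under 0.05. All 10 differences were above 0 (38.7% of all genes) and ran from 0.45 for Cd2 to 1.70 for Cd3g, with a median of 1.07 compared with -0.04 over all genes. Setting old-OSKM replicate 1 aside left a median of 0.59 and 9 of 10 above 0. Only 2 genes, Cd3g and Cd8b1, then kept an unadjusted limma p under 0.05, where 4.15% of all genes had one in either direction, and none was called. Since this contrast shares its old-OSKM mice and its young mice with the others, the 3 sets of differences are not independent.

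**Figure D2:**
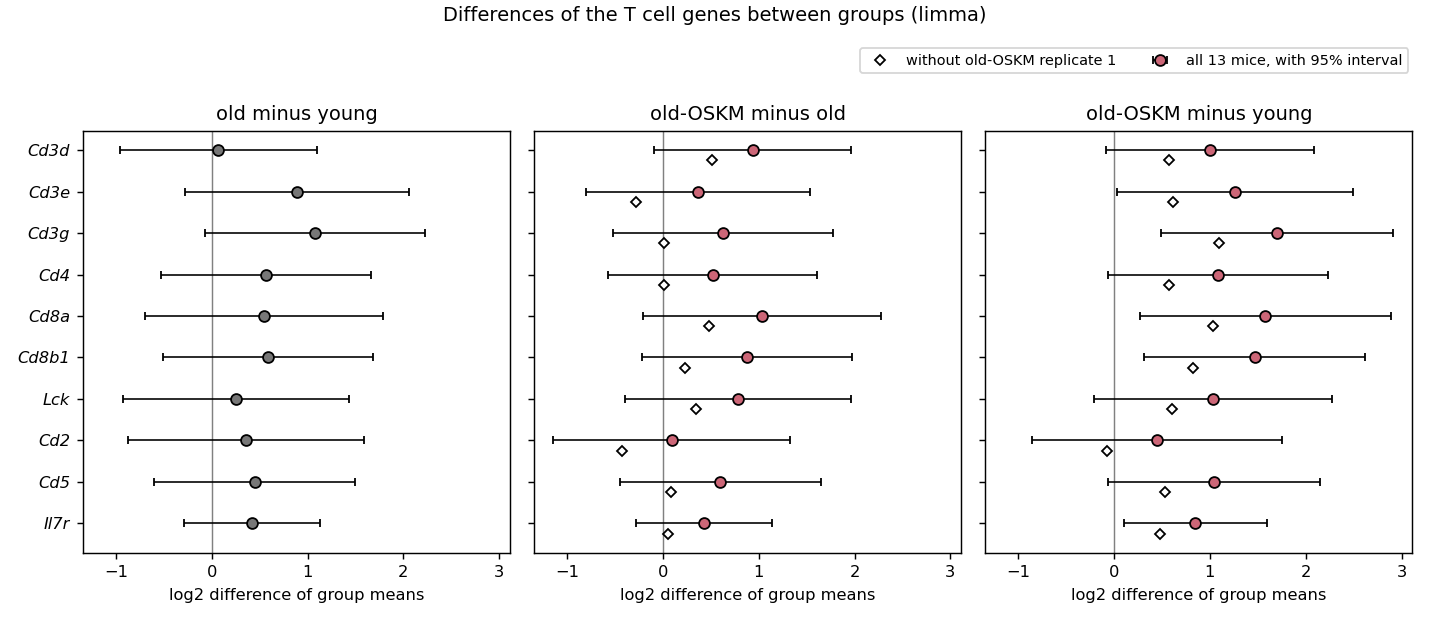
Log2 differences of group means for the 10 T cell genes in each contrast, with 95% intervals from limma (filled circles) and, in the contrasts with old-OSKM mice, the values without old-OSKM replicate 1 (open diamonds). All circles lie above 0, from 0.07 to 1.70, and the diamonds of old-OSKM minus old lie between -0.43 and 0.51.

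The sample identifiers fall in an earlier run of numbers and a later one that holds 2 young mice and 1 old mouse. What separates the runs is not stated. With the earlier run alone (2 young, 4 old and 4 old-OSKM mice), the medians of the 10 differences were 0.53, 0.51 and 1.16 in the same order of contrasts, and all 10 differences were above 0 in each. With the run as a covariate, Cd3g differed by 1.39 between old-OSKM and young mice and was no longer called.

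The genes varied together across mice, though less so without old-OSKM replicate 1. Over the 45 pairs of the 10 genes, Pearson's r across the 13 mice had a median of 0.72 (0.49 for Cd4 with Lck to 0.91 for Cd3e with Cd8b1). Spearman's rho had a median of 0.50 (0.11 to 0.86). Without old-OSKM replicate 1 the median r was 0.39 and 44 of the 45 were above 0. Cd3e was also compared with a set of 10 genes. With Cd3g, r was 0.81 (permutation p = 0.00319, adjusted over the 10 relations 0.0121) and rho 0.71 (permutation p = 0.00883, adjusted 0.0801). Without the 2 mice farthest from the median of Cd3e, old-OSKM replicate 1 and young replicate 4, r was 0.44, so that the relation rests largely on those mice. With Cd4, Cd8a, Cd3d and Lck, r was 0.80, 0.79, 0.67 and 0.58 (rho 0.63, 0.54, 0.41 and 0.11). These r were 0.65, 0.56, 0.14 and 0.19 without the same 2 mice. The r of Cd3e was 0.78 with Ptprc, the pan-leukocyte gene of CD45 (rho 0.37), and 0.71 with the B cell receptor gene Cd79a (rho 0.63). With the acinar gene Cpa1, whose room to vary quantile normalization limits, it was -0.07 (rho 0.11). Without the same 2 mice the r with Ptprc was 0.47 and with Cd79a 0.31, and no rho of the 10 had an adjusted permutation p below 0.0801.

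**Figure D3:**
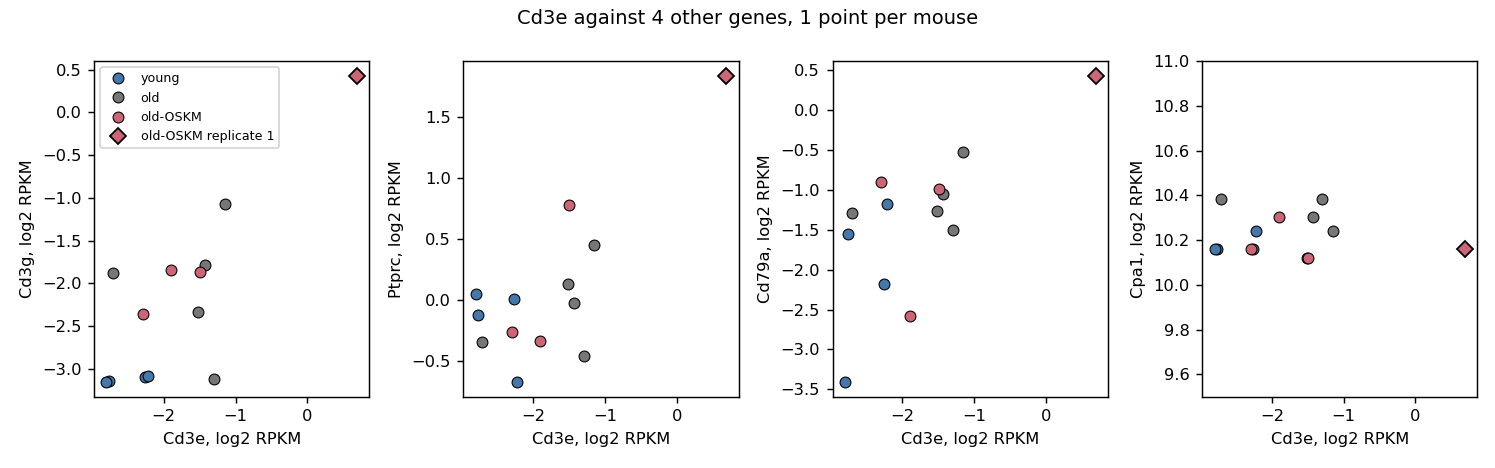
Log2 RPKM of Cd3e (horizontal axes) against Cd3g, Ptprc, Cd79a and Cpa1 (vertical axes), with 1 point per mouse colored by group. The diamond, old-OSKM replicate 1, stands alone at the upper right for Cd3g, Ptprc and Cd79a, and its Cpa1 level of 10.16 is that of other mice.

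Among genes outside the list, those whose pattern over the 13 mice was most like the mean of the T cell genes included Itga4, Arhgap30, Ccl5, Akna, Fyb, Coro1a, Itgal, Dock2 and Slamf7, with r of 0.93 to 0.96 among 3666 candidates (mean log2 RPKM over -2 and SD over 0.3). The integrin gene Itga4 came first (r 0.96, and 0.87 without old-OSKM replicate 1). Ccl5, a chemokine of activated T cells and natural killer cells, was next but one (r 0.94, and 0.82 without that mouse).

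Other genes of the T cell program were read from lists of 17 receptor signalling genes, 11 costimulation and checkpoint genes, 10 transcription factors, 8 homing genes and 12 cytotoxic and natural killer genes. Between old and young mice, 1 signalling gene and 1 checkpoint gene were called, both higher. Ubash3a, a phosphatase family member that restrains receptor signalling, averaged -4.17 ± 0.03 (SD, n = 4) in the young group and -3.04 ± 0.29 (SD, n = 5) in the old group, which differed by 1.13 (standard error 0.30, adjusted p = 0.424 from limma). Its young values were as constant as those of Cd3g and all near the bottom. Cd96, an adhesion receptor of T and natural killer cells, differed by 1.00 (standard error 0.32, adjusted p = 0.614 from limma), a call that ended in 8 of the 13 fits that left out 1 mouse. Its young values were near the bottom except in young replicate 1, and old and young values overlapped. None of the transcription factor, homing or cytotoxic genes was called in that contrast. The medians over the 5 lists, in the order above, were 0.21, 0.25, 0.25, 0.37 and 0.25. With old-OSKM replicate 1 left out of the shared estimate of spread, 4 signalling genes, 1 checkpoint gene and 2 homing genes were called higher, where 0.484% of all genes were.

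Between old-OSKM and old mice, Icos was the only gene called in these 5 lists. It encodes a costimulatory receptor of activated T cells, and it measured -3.56, -3.20, -3.55, -3.57 and -3.57 in old and -1.90, -2.62, -3.14 and -2.66 in old-OSKM mice. Of the old mice 4 lay between -3.57 and -3.55, near the bottom. Old-OSKM and old values did not overlap, and the log2 difference was 0.91 (standard error 0.23, adjusted p = 0.547 from limma). It was 0.68, and still called, without old-OSKM replicate 1. The medians of the 5 lists were 0.16, 0.27, 0.08, 0.20 and 0.41, and -0.15, 0.13, -0.03, 0.07 and 0.05 without that mouse.

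Between old-OSKM and young mice, Ptpn22, Ubash3a, Cd96 and the chemokine receptor gene Cxcr3 were called, all higher and with adjusted p-values of 0.409 to 0.706. Ptpn22 encodes a phosphatase that opposes Lck. It was -2.40, -2.62, -2.71 and -2.74 in young, -1.57, -1.75, -1.76, -1.88 and -1.93 in old, and -0.16, -1.85, -1.31 and -1.81 in old-OSKM mice. No young mouse reached any of the other 9, and young replicates 3 and 4 were near the bottom. Its log2 difference was 1.33 between old-OSKM and young mice (standard error 0.30, adjusted p = 0.409 from limma). Between old and young mice it was 0.84 (standard error 0.28) and not called. Leaving out old-OSKM replicate 1 gave 0.96 and 0.84, both called. Cxcr3, a homing receptor of activated T cells, differed by 1.64 between old-OSKM and young mice (standard error 0.37) and by 1.30, still called, without that mouse. Its young values were -2.39, -3.51, -3.59 and -3.59, all but the first near the bottom, and old-OSKM and young values overlapped. Ubash3a was no longer called without it (0.81), nor on leaving out 6 other mice in turn. The medians of the 5 lists were 0.50, 0.49, 0.31, 0.62 and 0.65, and 0.15, 0.32, 0.15, 0.34 and 0.23 without old-OSKM replicate 1.

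Some genes of these lists stood well above the 10 T cell genes in all groups. Cd247, the zeta chain of the receptor complex, had a mean of 0.61 in young, 0.62 in old and 0.74 in old-OSKM mice, above the other CD3 chain genes in every group, and Fyn and Tcf7 were at group means between 0.08 and 1.24.

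Genes of other leukocytes moved with the T cell genes in old-OSKM replicate 1. It was the highest of the 13 mice for 11 of 12 pan-leukocyte genes, 12 of 14 B and plasma cell genes, 10 of 14 macrophage genes, 6 of 9 dendritic cell genes and 5 of 9 lymph node genes. It was the highest for 15 of 17 receptor signalling, 8 of 11 costimulation and checkpoint, 6 of 10 transcription factor, 7 of 8 homing and 8 of 12 cytotoxic genes. It was the highest for none of the acinar, islet, duct or innate lymphoid and mast cell genes. Summed B and plasma cell RPKM was 18.2 in this mouse, and over the groups it ran from 2.07 to 4.50 in young, 4.20 to 11.1 in old and 5.54 to 18.2 in old-OSKM mice. Summed pan-leukocyte RPKM was 31.3 there, with ranges of 9.31 to 10.4, 9.20 to 13.0 and 9.97 to 31.3. Summed macrophage RPKM was 55.0, with ranges of 18.2 to 30.3, 14.4 to 24.3 and 21.3 to 55.0. Dendritic cell genes summed to 6.43 RPKM (2.97 to 3.48, 3.86 to 4.63 and 3.59 to 6.43), and innate lymphoid and mast cell genes to 6.42 RPKM (5.92 to 7.80, 7.18 to 8.49 and 5.61 to 7.79).

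Lymph node genes bear on the position of nodes beside the pancreas. They summed to 6.06 RPKM in old-OSKM replicate 1, with ranges of 1.96 to 2.56 in young, 1.91 to 3.05 in old and 2.69 to 6.06 in old-OSKM mice. The list also holds the lymphocyte genes Ltb and Cxcr5, so its sum is not one of node stroma alone. Ccl19 and Cxcl13, chemokines of T cell and B cell areas, were at 0.17 and 0.55 there, the highest of the 13 mice for both. Ccl21a was at -0.12, within the range of the others. Glycam1, a gene of the high endothelial vessels of lymph nodes, was at -2.80, and only old-OSKM replicate 4 was lower. Islet genes summed to 76.5 RPKM in the same mouse, the lowest of the 13, where the other mice had 112 to 487. Medians of the differences set these lists beside the T cell genes (0.50, 0.61 and 1.07 in the order of contrasts used above). Among B and plasma cell genes they were 0.77, 0.36 and 0.94, and without old-OSKM replicate 1 the last 2 became -0.06 and 0.56. Macrophage genes had medians of -0.26, 0.74 and 0.61. Their median between old-OSKM and old mice was still 0.49 without that mouse, with 14 of 14 genes above 0, where the T cell genes had 0.07. Pan-leukocyte genes had 0.16, 0.57 and 0.76 (0.16 and 0.34 without it), dendritic cell genes 0.11, 0.39 and 0.42 (0.10 and 0.22), lymph node genes 0.20, 0.45 and 0.46 (0.28 and 0.35), and innate lymphoid and mast cell genes 0.18, -0.07 and 0.14 (0.02 and 0.22).

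The part of B cells, macrophages, lymph node tissue or a different tissue piece in the T cell differences was not tested.

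**Figure D4:**
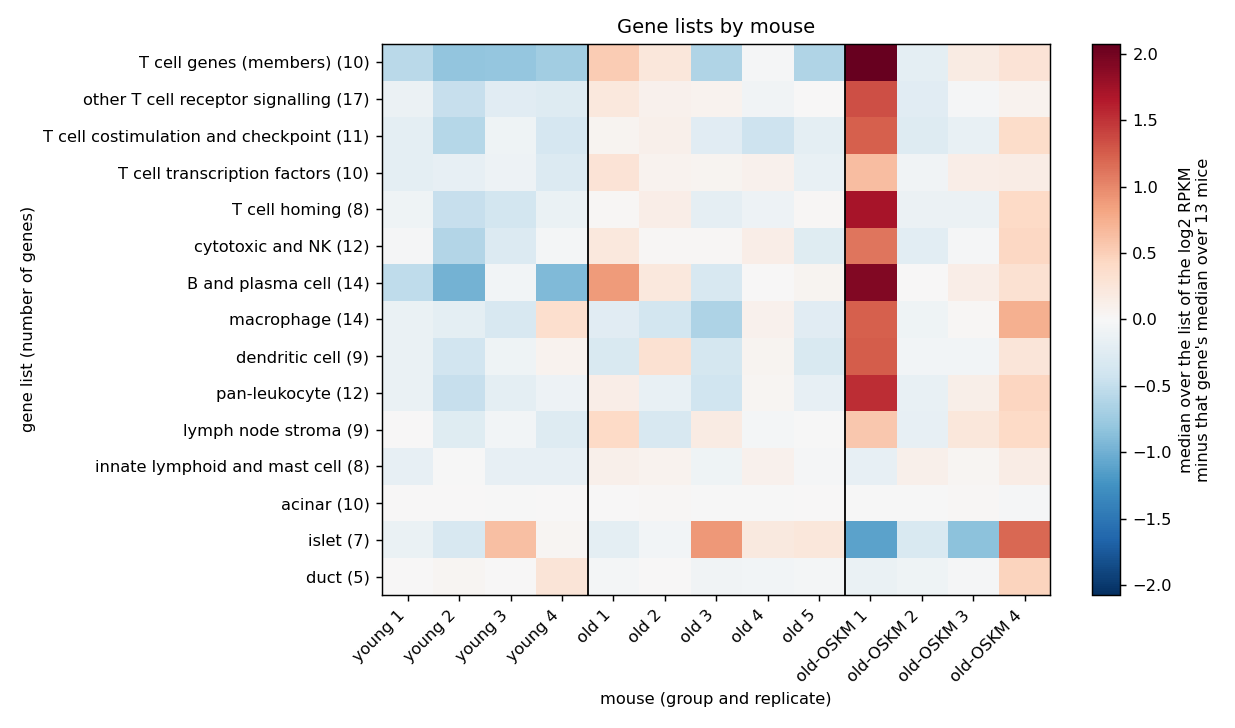
Each cell gives, for a gene list (rows) and a mouse (columns), the median over the list of a gene's log2 RPKM minus that gene's mean over the 13 mice, in log2 units. The color key words this as the gene's median, but the mean was subtracted, and it includes old-OSKM replicate 1. The column of old-OSKM replicate 1 is red for T cell genes (2.07), B and plasma cell genes (1.93), pan-leukocyte genes (1.53) and the other leukocyte lists except innate lymphoid and mast cell genes (-0.17). It is near 0 for acinar genes, whose room to vary quantile normalization limits, and blue for islet genes (-1.11).

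Between groups, none of the pan-leukocyte, acinar, islet or duct genes was called in any contrast. The calls in the other lists, all higher and all with adjusted p-values above 0.05, were Jchain and Zbtb46 between old and young mice, C1qc, Xcr1 and Mcpt4 between old-OSKM and old mice, and Ms4a1, Cd79b, Jchain, Pou2af1, Ccl19 and Mcpt4 between old-OSKM and young mice. With old-OSKM replicate 1 left out, the last group was reduced to Jchain and Mcpt4, and none of the 3 genes of the contrast with old mice was called. Between old and young mice the B and plasma cell calls then rose from 1 to 3, as Cd79b and Pou2af1 joined Jchain. Single mice decided other calls as well. Of the 13 fits that each left out 1 mouse, C1qc lost its call in 9, Xcr1 and Ms4a1 in 7, Ccl19 in 6, Pou2af1 in 5, Cd79b in 3 and Zbtb46 in 1. Jchain lost it in 5 between old and young mice and Mcpt4 in 5 between old-OSKM and old mice, and neither lost it in any between old-OSKM and young mice. Cd3e minus Ptprc of the same mouse, in log2 units, averaged -2.33 ± 0.57 (SD, n = 4) for young mice, -1.57 ± 0.55 (SD, n = 5) for old mice and -1.76 ± 0.50 (SD, n = 4) for old-OSKM mice, and was -1.15 for old-OSKM replicate 1. Cd3g minus Ptprc averaged -2.93 ± 0.35 (SD, n = 4), -1.99 ± 0.53 (SD, n = 5) and -1.92 ± 0.57 (SD, n = 4) in the same order. Between young and old mice the step exceeded the SDs of both groups for these 2 genes alone, and all young Cd3g values were near the bottom. The steps of the other 8 genes ran from -0.07 for Cd3d to 0.45 for Cd8b1. Between old and old-OSKM mice only Cd2 had a step beyond both SDs (-0.46). No test was run on these ratios.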

How the data were processed

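Total RNA of whole pancreas was depleted of rRNA and sequenced with paired ends, 1 library per mouse. The authors aligned reads to mm10 with STAR 2.3.0e, estimated RPKM per isoform with Casper (leaving out reads that mapped to 5 or more places), summed them per Entrez gene, and deposited log2 values after quantile normalization. Their correction by read totals is not in the deposited log2 table, whose sorted columns differ by at most 0.0116. Counts and the read total of each library are not in the table used here, and the methods give 1 nominal depth for all samples. Values were used as deposited, without pseudocount or filter.

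The 3 groups were fitted together with limma 3.58.1 (R 4.3.3, lmFit and eBayes, no covariate). The calling rule was a difference beyond 1.5-fold with p below 0.01 before adjustment. Adjusted p-values (Benjamini-Hochberg) cover all 23366 genes. Exact permutation tests were two-sided, and correlations used 100000 permutations (scipy 1.17.1). On simulated data 196 of 200 genes changed by a log2 of 2 between old and young mice were called, and 0.341% of the unchanged. In the measured data the 10 T cell genes differed by 0.07 to 1.08 between old and young mice. The share called at differences of that size was not tested.

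The 10 genes and the 14 other lists were chosen with earlier results of these data known. The text names all 10, genes of other lists that were called or had among the smallest p-values of their list, a few fixed lineage genes, and those of the 10 genes most like the mean of the 10 that are reported here. Fyn, Tcf7, Cd247 and Ctrb1 were added after their values were seen. Symbols were matched by Entrez ID, and 23273 of 23366 genes had one. Nothing says whether mice shared litters, and p-values measure the spread between these mice. Alternatives covered normalization, filters, pseudocounts, the fit, a run covariate and each mouse left out in turn.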

Additional observations from a re-analysis of the deposited data

Results flagged for a closer look

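Single mice that stood apart from the rest of their group were looked for in each of the 10 T cell genes and 3 groups with Dixon's test at its 95% level. The test flags about 1 in 20 groups by chance when values are normal. Of the 30 groups, 5 were flagged. Low values here bunch at a bottom and the genes share their mice, so the 5 cannot be judged by that rate. Cd3d in young replicate 3 was -1.97, far above the other young mice, which were near the bottom. Cd8a in young replicate 4 (-3.26) and Cd5 in young replicate 1 (-2.35) also stood above their group, whose other mice were near the bottom for these genes. Cd3e in old replicate 3 was -2.71, far below the other old mice. Cd8b1 in old-OSKM replicate 1 was -0.02, far above the other old-OSKM mice. That mouse had the highest value of its group for the other 9 genes too, without passing the same limit.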

How the results depend on the processing

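The 10 T cell genes called numbered 0 to 1 between old and young mice when each mouse was left out in turn, 0 to 1 between old-OSKM and old mice and 0 to 3 between old-OSKM and young mice. The 1 was Cd3g without old-OSKM replicate 1 and Cd3d without old-OSKM replicate 2, and the 3 were Cd3d, Cd3g and Cd8a without old-OSKM replicate 2. The median differences of the 10 genes ran from 0.38 to 0.59, 0.07 to 0.91 and 0.59 to 1.45 in the same order. Signs turned for Cd3d (-0.065 to 0.41) and Lck (-0.052 to 0.53) between old and young, for Cd3e (-0.28 to 0.72) and Cd2 (-0.43 to 0.37) between old-OSKM and old, and for Cd2 between old-OSKM and young mice (-0.074 to 0.74). The genes called among all genes ran from 175 to 280, 94 to 338 and 121 to 253. The call of Cd3g between old-OSKM and young mice was lost (0 of 10 called) with each mouse centred on its median, with a pseudocount of 1 or of 0.1, with the 2 groups alone in the fit, with trend and robust eBayes and with the identifier run added to the model. It was kept with quantile normalization repeated and with genes of a mean over -3 alone. Exact permutation tests put 2 genes under 0.05 between old and young, 0 between old-OSKM and old, and 3 between old-OSKM and young mice. The share of all genes under 0.05 by that test was not counted, so these numbers have no background to be read against. A pseudocount of 1 gave a median of 0.24 between old-OSKM and young mice and turned Cd3d between old and young mice to -0.0021. Over all genes, that pseudocount left 16, 2 and 8 calls, a pseudocount of 0.1 left 116, 77 and 76, and a mean over 0 left 44, 35 and 19, compared with 207, 176 and 146 as deposited. The filter on a mean over 0 kept 8410 of 23366 genes, and calls fell by a larger share than genes did. The pseudocounts shrink differences of low genes, as these 10 are. No T cell gene had a mean over 0, so that filter gave no value for them, and 9 had a mean over -3. No paired analysis was possible because replicate numbers were given in accession order and the columns carry none that tie mice of different groups together. The absence of read totals limits what low values can show, since near-bottom values cannot be separated from no reads.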
